A study of Bos taurus with 4 samples.

Results

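The fatty acid desaturases and elongases of the bovine mammary gland were described from 10 genes of the deposited gene table: SCD, SCD5, FADS1, FADS2, FADS3, ELOVL1, ELOVL4, ELOVL5, ELOVL6 and ELOVL7. They were chosen by symbol, and all 10 were found among the 31021 genes of the table. The table holds 2 RNA-seq libraries of primary mammary epithelial cells from Chinese Holstein cows, 1 titled HH and 1 titled LL. The series describes cows with high (4.85%) or low (3.41%) milk fat on a shared diet of corn and hay, and primary cells obtained from the gland by culturing tissue pieces and digesting them with enzymes. The labels used here name neither the number of cows behind a library nor their age or stage of lactation. What HH and LL stand for is not written out, and both RNA-seq libraries carry the same phenotype label. Directions are therefore given as HH against LL and not as high against low milk fat. The 2 small RNA libraries were not used. Each code is a single RNA-seq library, so no ratio could be set against a spread between replicates, and the comparisons are between these 2 libraries and not between conditions.

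Desaturases put double bonds into fatty acyl chains, and elongases carry out the first and rate-limiting step of the cycle that lengthens a chain by a pair of carbons in the endoplasmic reticulum. In the lactating mammary gland stearoyl-CoA desaturase turns stearic acid, much of it taken up from blood, into oleic acid, and makes conjugated linoleic acid from vaccenic acid formed in the rumen. Oleic acid lowers the melting point of milk fat. FADS1, FADS2 and ELOVL5 act mainly on polyunsaturated chains, and ELOVL1, ELOVL4, ELOVL6 and ELOVL7 mainly on saturated, monounsaturated or very long chains.

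All 10 genes had more reads in HH than in LL after scaling, but SCD was the only 1 past 2-fold. A gene was called past 2-fold when the whole exact 95% interval of its ratio lay beyond 2-fold, among genes with at least 100 summed counts. The intervals cover counting error of reads only. Of the 8 members within the limit, 1 was past 2-fold in HH, none was past it in LL and 7 were neither. By the same rule 2.87% of the 12804 genes tested were past 2-fold in either library, 240 genes (1.87%) in HH and 128 in LL. The whole interval lay past 1.5-fold in HH for 2 of the 8, SCD and FADS3, and for 4.86% of all genes tested. It lay above equality for 5 of the 8, beside 27.2% of all genes tested, and below equality for none, beside 27.9%. The point ratio was above equality in 8 of 8 tested members, and in 48.4% of all genes tested. The median log2 ratio of the 8 was 0.35, beside −0.01 over all genes tested with quartiles at −0.23 and 0.24. FADS2 and ELOVL4 had under 100 summed counts and entered none of these counts. At a lower limit of 20 summed counts the point ratio was above equality in 10 of 10 members and in 49.0% of 16249 genes.

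The libraries held 17369144 counts in HH and 16318951 in LL. Levels are in CPM, the usual depth-scaled read count, after scaling with trimmed mean of M values (TMM) factors. No transcript lengths were used here, so CPM values are compared between libraries for the same gene and not between genes. The casein genes CSN2 and CSN3 and the epithelial genes EPCAM, KRT8 and KRT19 were abundant in both libraries, which carry the label of mammary epithelial cells. Markers of endothelium, leukocytes and fibroblasts were present as well. In bulk RNA fewer cells of a type and less RNA per cell cannot be told apart.

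**Figure D1:**
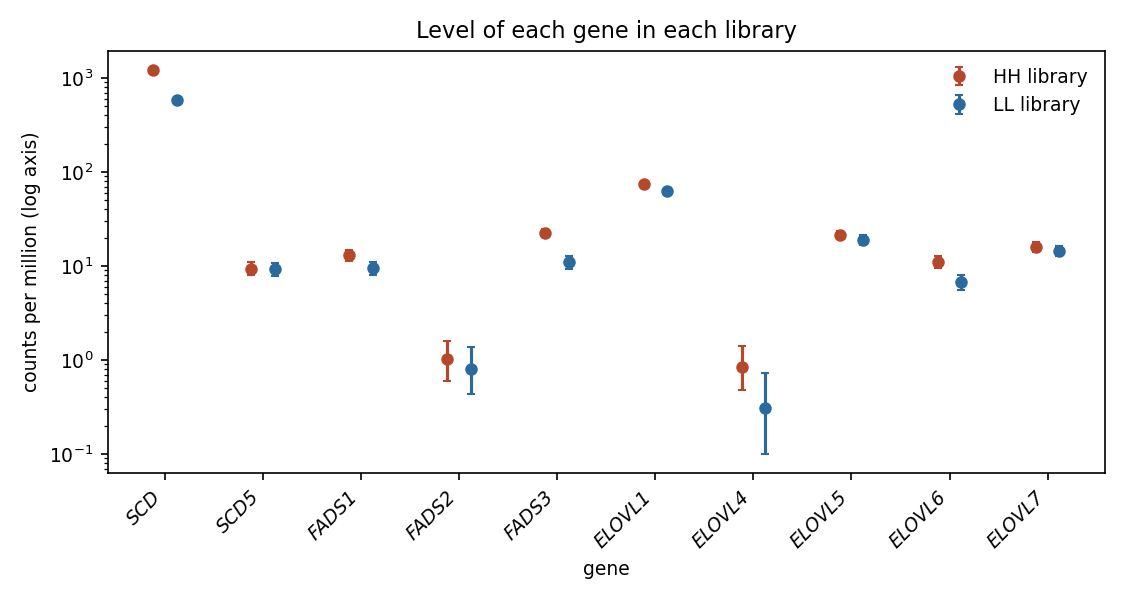
CPM of each of the 10 genes (log axis) in the HH and the LL library. Points are the values of 1 library each and bars are exact 95% intervals of counting error; the SCD points stand at 1204 in HH and 583.0 in LL, while the points of SCD5 are at 9.40 and 9.22.

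SCD encodes the stearoyl-CoA desaturase of the lactating gland. It had 21254 counts in HH and 9359 in LL, or 1204 and 583.0 CPM. HH was the higher library at 2.06-fold (exact interval 2.01 to 2.12), a log2 ratio of 1.05 (1.01 to 1.08). The lower bound is close to the threshold: under upper-quartile scaling the ratio was 1.03 with an interval from 0.99 to 1.06, so the call was lost there. Among the 461 genes with at least 10000 summed counts, 12 (2.60%) had a higher ratio than SCD. Across all 12804 tested genes 3.20% did.

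The table has another row described as an acyl-CoA desaturase whose best human match is SCD. This row, LOC101906058, was found after the values were seen and is not in the RefSeq gene table of ARS-UCD2.0. It had 4667 counts in HH and 1821 in LL, or 264 and 113 CPM. Its log2 ratio was 1.22 (1.14 to 1.30), again past 2-fold in HH. No source used here says how reads shared between similar genes were counted, and no sequences were compared. The reads of SCD may be divided over both rows, which was not tested. The log2 ratio of SCD was below that of LOC101906058 (difference −0.17, interval −0.26 to −0.09). Summed, the rows had 25921 counts against 11180, a log2 ratio of 1.08 (1.04 to 1.11). The sum was past 2-fold under every scaling tried, upper-quartile scaling included, where the ratio was 1.06 (1.02 to 1.09). LOC101906058 took 18.0% of the summed counts in HH (17.5 to 18.5%) and 16.3% in LL (15.6 to 17.0%).

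SCD5 encodes a second stearoyl-CoA desaturase, known in human mainly from brain. It had 166 counts in HH and 148 in LL, or 9.40 and 9.22 CPM. The libraries were not told apart by counting error, with a log2 ratio of 0.03 (−0.30 to 0.36). The interval excludes a ratio as large as that of SCD. The ratio between SCD and SCD5, which needs no scaling of the libraries, was higher in HH by 1.02 on the log2 scale (0.69 to 1.35). SCD5 made up 0.775% of the counts of both desaturases in HH (0.662 to 0.902%) and 1.56% in LL (1.32 to 1.83%).

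FADS1, FADS2 and FADS3 lie in this order in the RefSeq gene table, FADS2 and FADS3 side by side. FADS3, which in human and mouse cells desaturates sphingoid bases, had the largest ratio of these genes. It had 398 counts in HH and 176 in LL, or 22.5 and 11.0 CPM. Its log2 ratio was 1.04 (0.78 to 1.30), a point value nearly that of SCD but from far fewer reads, so that the interval reached below 2-fold. Of the 6953 genes with 100 to 999 summed counts, 4.30% had a higher ratio.

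FADS1 encodes the desaturase that forms arachidonic and eicosapentaenoic acid. It had 229 counts against 152, or 13.0 and 9.47 CPM, a log2 ratio of 0.45 (0.15 to 0.76). The interval lay above equality and under 2-fold. FADS2, the first desaturase of the polyunsaturated pathway, was scarcely detected, with 18 counts in HH and 13 in LL (1.02 and 0.810 CPM). Its ratio of 0.33 had an interval from −0.78 to 1.48, so neither a difference nor equality was detectable at this depth. The annotated spans of FADS1 and FADS2 overlap in the RefSeq table, and no source used here says whether the counting used strand, so reads in the shared stretch are uncertain. FADS3 made up 61.7% of the counts of the 3 FADS genes in HH (57.8 to 65.5%) and 51.6% in LL (46.2 to 57.0%).

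ELOVL6 lengthens palmitic to stearic acid, the substrate of SCD, and had the highest ratio of the elongases within the count limit. It had 195 counts in HH and 108 in LL, or 11.0 and 6.73 CPM. The log2 ratio was 0.71 (0.37 to 1.07), above equality but not past 2-fold. ELOVL1, which makes saturated and monounsaturated very long chains for sphingolipids, had 1304 counts against 1001, or 73.9 and 62.4 CPM. Its log2 ratio was 0.24 (0.12 to 0.36), an interval above equality and well under 2-fold.

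ELOVL5 lengthens polyunsaturated chains and ELOVL7 saturated ones. ELOVL5 had 379 counts against 305 (21.5 and 19.0 CPM), a log2 ratio of 0.18 (−0.05 to 0.40). ELOVL7 had 283 against 233 (16.0 and 14.5 CPM), a ratio of 0.14 (−0.11 to 0.40). With TMM scaling both intervals held equality and excluded a ratio as large as that of SCD. ELOVL4, known for the very long chains of retina and skin, had 15 counts in HH and 5 in LL, 0.850 and 0.311 CPM. Its point ratio of 1.45 was the highest of the 10 genes and the least certain, with an interval from −0.09 to 3.26. The ELOVL1 span overlaps LOC100335822, and that of ELOVL7 a pseudogene, LOC107131564, with 56 counts in HH and 75 in LL.

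**Figure D2:**
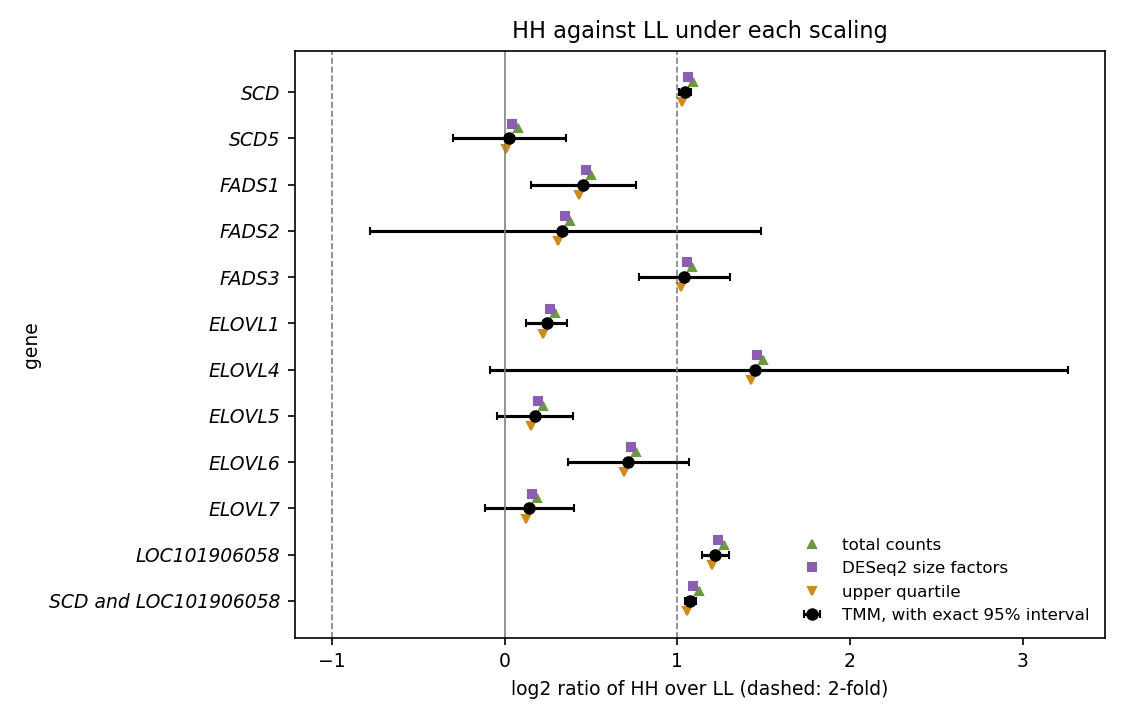
Log2 ratio of HH over LL for each gene, for the other row matched to SCD (LOC101906058) and for the sum of both rows. Black points and bars are the TMM-scaled ratio with its exact 95% interval, coloured points the same ratio under other scalings, and dashed lines 2-fold; only SCD, LOC101906058 and their sum have bars wholly past 2-fold.

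Summed by role, SCD and SCD5 had 21420 counts against 9507. This is 2.05-fold (1.999 to 2.10), a log2 ratio of 1.03, with the lower bound just under 2-fold. The FADS genes together had 645 counts against 341, a ratio of 0.78 (0.59 to 0.98). The elongases together had 2176 against 1652, a ratio of 0.26 (0.17 to 0.35). The elongase total thus differed less between the libraries than the total of either desaturase group, and its interval overlapped neither of theirs. Each total came mostly from a single gene. SCD made up 99.2% of its group's counts in HH and 98.4% in LL, FADS3 61.7% and 51.6%, and ELOVL1 59.9% and 60.6%. The contrast does not hold gene by gene: the point ratio of ELOVL6 (0.71) was above those of FADS1 (0.45) and SCD5 (0.03). Counts of the 9 genes other than SCD gave 0.34 (0.26 to 0.42).

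**Figure D3:**
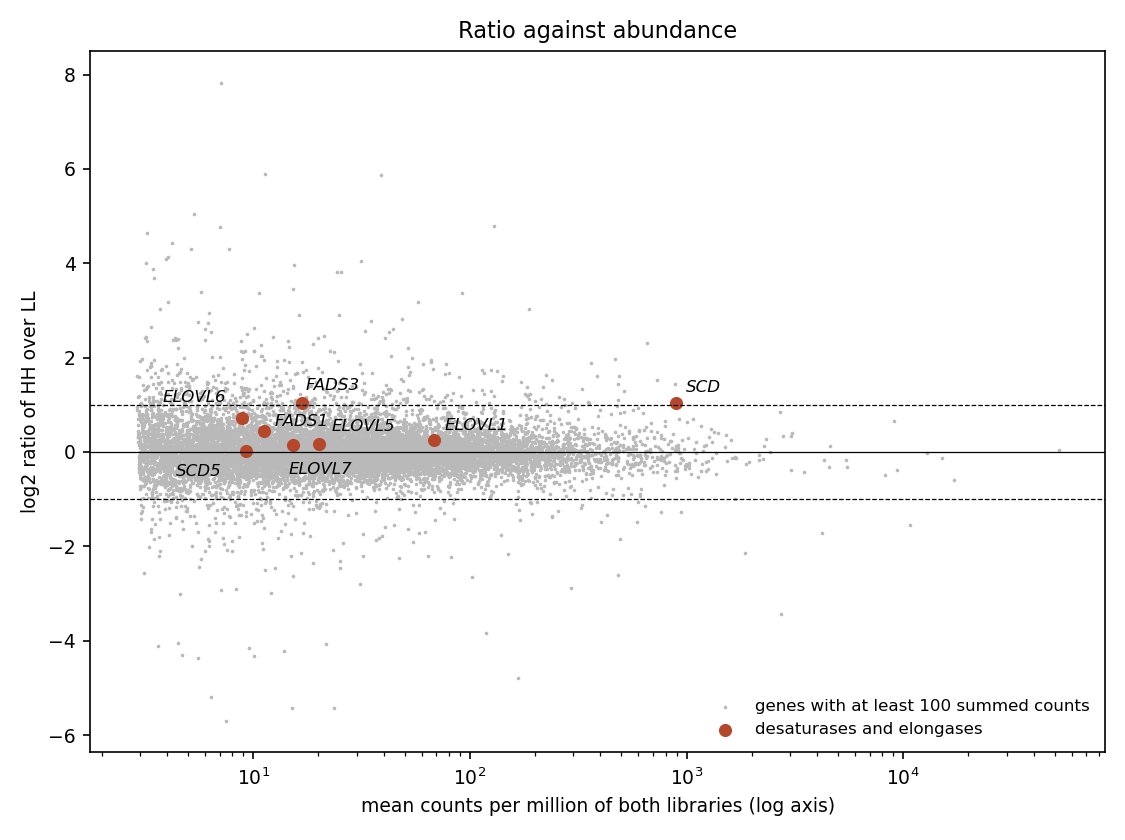
Log2 ratio of HH over LL against mean CPM of both libraries (log axis) for 12802 tested genes (grey), with the 8 members of at least 100 summed counts in red; 2 genes with no count in a library are not drawn. Dashed lines mark 2-fold. SCD, at a ratio of 1.05, stands at the upper edge of the abundant genes, and the other members lie between 0.03 and 1.04.

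Whether the members differed from each other was asked over all 45 pairs, by the ratio between the counts of both genes in HH over the same ratio in LL. Each difference had an exact interval widened for the number of pairs (Bonferroni). In 9 of the 45 pairs the interval lay off 0. SCD was above 5 others, namely SCD5, FADS1, ELOVL1, ELOVL5 and ELOVL7. FADS3 was above 4, namely SCD5, ELOVL1, ELOVL5 and ELOVL7. The difference between SCD and FADS3 was 0.01 (−0.44 to 0.44), and that between SCD and ELOVL6 was 0.33 (−0.26 to 0.90). SCD, FADS3 and ELOVL6 were therefore not separated from each other by counting error, which does not show that they were equal. No pair among ELOVL1, ELOVL5, ELOVL7, SCD5 and FADS1 was separated. ELOVL6 was not separated from any of these genes either, so it cannot be placed with SCD and FADS3 or with them.

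**Figure D4:**
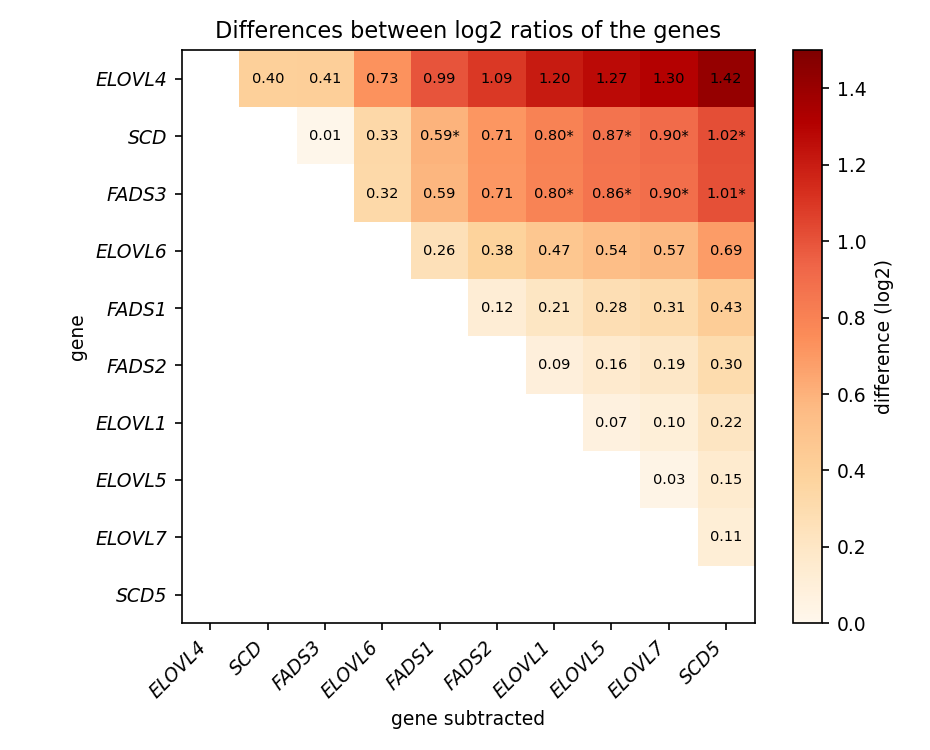
Difference between the log2 ratios (HH over LL) of each pair of genes, the gene of the column subtracted from that of the row, with genes ordered by ratio. A star marks the 9 pairs of 45 whose interval, widened for the number of pairs, lies off 0; all 9 are in the rows of SCD and FADS3.

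The genes that work with these enzymes were described through 8 lists. Of their 86 tested members 0 were past 2-fold in either library, which is near the 2.87% of all genes tested. Beside the list counts that follow, the whole interval lay above equality for 27.2% of all genes tested and below it for 27.9%. Intervals are narrower for genes with more reads, so such counts depend on depth. Of the partners that complete the elongation cycle, 5 of 9 were tested. All 5 had point ratios above equality, 2 with the whole interval, and the median was 0.25. TECR, the enoyl reductase that ends the cycle, had 1491 counts against 933, a ratio of 0.54 (0.42 to 0.66). HACD1, a dehydratase, was at 0.38 (−0.06 to 0.82) and HSD17B12, the ketoacyl reductase, at 0.10 (−0.04 to 0.24). The elongase gene ELOVL3 had no count in either library, which allows up to 3 counts, or 0.170 CPM in HH and 0.187 in LL. ELOVL2 had 9 counts in each.

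Desaturases draw electrons through cytochrome b5 and its reductases. Of the 8 tested donors and other desaturases, 5 had intervals above equality and 1 below, with a median of 0.24. The reductase gene CYB5R3 was at 0.42 (0.37 to 0.46), with 9416 counts against 6406, and CYB5A was at 0.23 (0.15 to 0.31). DEGS1, the sphingolipid desaturase that forms ceramide, was at 0.71 (0.58 to 0.84), with 1365 counts against 761. Its relative DEGS2 was at 0.81 (0.26 to 1.38).

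The genes that supply acyl chains did not share the SCD ratio. Of 14 tested, 9 had intervals above equality and 5 below, with a median of 0.21. FASN, the fatty acid synthase, was at 0.36 with 30311 counts against 21533, and ACACA, which makes malonyl-CoA for both FASN and the elongases, was at −0.20 with 3146 against 3285. The log2 ratio of SCD was above that of FASN by 0.69 (0.65 to 0.73) and above that of ACACA by 1.25 (1.17 to 1.33). These differences need no scaling between the libraries. FABP3 (0.54) and ACSS1 (−0.89) were the furthest from equality on either side of this list.

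Among genes that use the products, 10 were tested for triacylglycerol, with a median of 0.15, 5 intervals above equality and 3 below. AGPAT2, an acyltransferase of this pathway, had the largest ratio at 1.16 (0.95 to 1.38), with 621 counts against 252. GPAT3 was at 0.81 (0.27 to 1.37) and DGAT1 at −0.06 (−0.19 to 0.08). For phospholipids and eicosanoids 9 were tested, with a median of 0.13, 4 intervals above and 2 below. ALOX5, a lipoxygenase acting on arachidonic acid, was at −0.85 (−1.25 to −0.45), and LPCAT3, which places polyunsaturated chains into phospholipids, at −0.75 (−0.88 to −0.63). For ceramides 10 were tested, with a median of 0.11, 4 intervals above and 1 below. CERS2, the ceramide synthase for very long chains, stood at −0.00 (−0.08 to 0.07). KDSR was at −0.44 and SGMS2 at 0.40.

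Regulators of the family were divided. Of 22 tested, 9 intervals lay above equality and 9 below, with a median of 0.04. SREBF1, whose product activates SCD and FASN transcription, was at −0.75 (−0.80 to −0.69), with 5127 counts against 7814. The ratios of SCD and SREBF1 lay on opposite sides of equality, 1.79 apart on the log2 scale (1.73 to 1.85). SREBF2 was at 0.57 (0.49 to 0.64), INSIG1, a sterol-regulated target and inhibitor of this pathway, at 0.63 (0.47 to 0.79), SCAP at 0.26 and PPARG at 0.06 (−0.23 to 0.35). MLXIPL, a carbohydrate-responsive activator, had 126 counts against 62 (0.89, interval 0.44 to 1.35). Peroxisomal genes went the other way, with 5 of 8 intervals below equality, 1 above and a median of −0.22. ACAA1 was at −0.66 (−0.79 to −0.53) and SCP2 at −0.45.

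**Figure D5:**
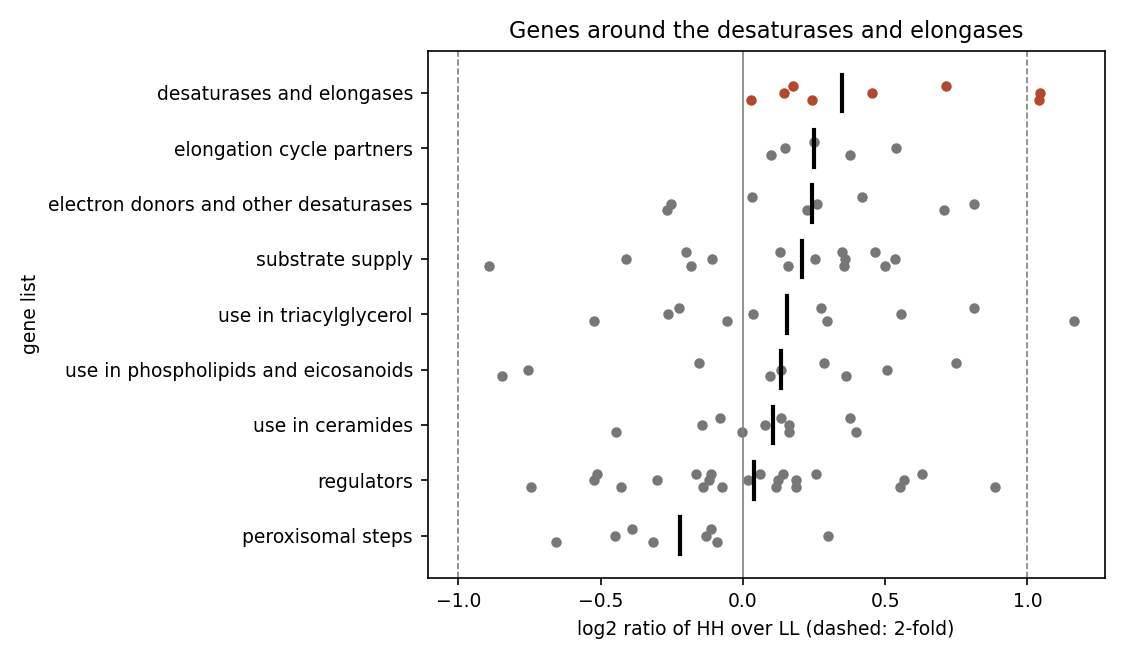
Log2 ratio of HH over LL of each tested gene (points) in the desaturases and elongases (red) and in 8 lists of genes around them (grey), with list medians as black bars and 2-fold as dashed lines. The medians run from 0.35 for the desaturases and elongases to −0.22 for peroxisomal steps.

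Markers of several cell types also had ratios away from equality. Over all genes tested, 27.2% had intervals above equality, 27.9% had intervals below it, and 1.87% were past 2-fold in HH. Basal and myoepithelial markers had intervals above equality in 7 of 7, 3 of them past 2-fold in HH, and summed to 2290 CPM in HH and 1025 in LL. Fibroblast markers had 5 of 7 above and 1 below, with sums of 655 and 525 CPM. Luminal markers had 8 of 9 above and 1 below, with sums of 84172 and 83163 CPM that are mostly casein. Endothelial markers had 1 of 5 above and 3 below, with sums of 706 and 870 CPM, and leukocyte markers 3 of 6 above and 2 below, with sums of 270 and 268 CPM. Proliferation markers summed to 3.91 and 35.8 CPM, and the 1 tested, MKI67, was past 2-fold in LL. MKI67 alone made up 29.4 CPM of the sum in LL. The others were under the count limit and divided: TOP2A had 12 counts in HH and 60 in LL, CCNB1 3 and 19, and CDK1 42 and 24. The part of these cell types in the ratios of the desaturases and elongases was not tested.

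Of the adipocyte markers, 6 were in the table, and they summed to 207 CPM in HH and 315 in LL. FABP4 made up most of this, with 3376 counts in HH and 4791 in LL. LIPE had 162 and 170 counts, PLIN1 88 and 79, ADIPOQ 21 and 14, CIDEC 1 and 7, and LEP 1 and 0. Of the 3 with at least 100 summed counts, no interval lay above equality and 1 lay below. The part of adipocytes was not tested either. Of all genes tested, 3.20% had a higher ratio than SCD, so a ratio of SCD above most markers is not particular to them. Set against each luminal marker without scaling, the ratio of SCD was higher than that of 8 of 9. The differences ran from 0.20 over KRT19 (0.16 to 0.24) to 1.64 over CSN2 (1.60 to 1.68). Among them were 0.80 over EPCAM (0.74 to 0.86), 0.79 over ELF5, 0.49 over KRT8 and 0.38 over PAEP. The ratio of SCD was lower than that of KRT18 by 0.70 (difference −0.70, interval −0.81 to −0.58). Against basal markers it was higher than 4 and lower than 3, the keratins KRT5, KRT14 and KRT17. Against fibroblast markers it was higher than 5 of 7, and for the other 2 the interval held 0.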

How the data were processed

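Total RNA was extracted with TRIzol, DNase-treated and turned into libraries (Ion Total RNA-Seq Kit), as the labels' protocols state. The authors deposited whole-number read counts per gene, not normalised, in columns HH and LL per the file headers. The aligner, counter, genome build and annotation were not given in the sources used here; coordinates are left out for that reason. RefSeq's gene table of ARS-UCD2.0 was used only for names, gene order and overlaps of annotated spans. The annotation behind the counts is not known, so these overlaps may not hold for it. Groups came from the title codes.

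Counts were scaled over the whole table with TMM factors (edgeR 4.0.16, R 4.3.3). Ratios (log2, HH over LL) have 95% intervals derived from the Clopper-Pearson interval for HH's fraction of a gene's reads (scipy 1.17.1). Differences between genes are conditional odds ratios with exact intervals. Without molecular identifiers reads may be copies of a molecule, so intervals and the floor of 3 counts cover counting error only. No p-value was computed, since there is 1 library per code. Levels per kilobase were planned but not made, because no transcript lengths were used here.

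The members and lists were chosen with earlier results of these data known. Named genes were all members, a preset panel and a choice from each of 8 pathway lists. From each list this was every gene past 2-fold, or otherwise the 2 tested genes furthest from equality in either direction. Genes outside this rule are the marker genes, ELOVL2, ELOVL3, the rows that overlap members and LOC101906058. Other scalings (total counts, DESeq2 1.42.0 size factors, upper quartile), count minimums and fold thresholds were tried. TMM factors were also estimated on mRNA genes only and on genes with at least 10 counts. On simulated counts for 12804 genes with 200 changed, the calls recovered 95.0% of 3-fold and 100.0% of 8-fold changes. These counts were drawn with Poisson counting error only, which the intervals assume. The simulation therefore checks the calculation and holds no spread between animals or library preparations. It planted no changes near 2-fold.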

Additional observations from a re-analysis of the deposited data

How the results depend on the processing

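No paired analysis was possible because each code has 1 RNA-seq library, and for the same reason no library could be left out. Every ratio moves by the same amount with the scaling: by 0.05 under total counts, 0.02 under DESeq2 size factors and −0.02 under the upper quartile. With TMM factors from mRNA genes only the shift was −0.007, and from genes with at least 10 counts 0.005. The point ratios of all 10 genes stayed above equality under each of these scalings, SCD5 least clearly. Under total counts the interval of ELOVL5 lay just above equality, at 0.22 (0.002 to 0.45). Under the upper quartile SCD was at 1.03 and no longer past 2-fold, so that 0 members were called. With TMM factors from mRNA genes only, the lower bound of SCD was 1.003, barely past 2-fold. With the counts of LOC101906058 added, an alternative chosen after seeing the data, the ratio was 1.06 under the upper quartile and 1.08 under TMM scaling, both past 2-fold. With the point ratio past 2-fold, or the whole interval past 1.5-fold, 2 members were called in HH, SCD and FADS3. The numbers of all genes called in HH and in LL were 452 and 229 by the point ratio, 622 and 329 at 1.5-fold, and 94 and 50 with at least 1000 summed counts, in place of 240 and 128. In LL 199 genes were called with at least 20 summed counts and 218 with no minimum. The cause of these shifts is the rule itself, which admits other genes or thresholds. The median of the members was 0.39 with FADS2 and ELOVL4 included. Depth limits FADS2 and ELOVL4 above all, since 31 and 20 summed reads leave wide intervals.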
